A study of Arabidopsis thaliana with 4 samples.

Results

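Plasma membrane aquaporins of the PIP1 and PIP2 subgroups were examined in first leaves of Arabidopsis thaliana. The 10 genes are PIP1;1 to PIP1;5 and PIP2;1, PIP2;2, PIP2;3, PIP2;6 and PIP2;7, matched by locus identifier among 34133 loci. They belong to the 13 PIP genes and 35 aquaporin genes of the species. All 10 had values in every library and passed the minimum mean level of 1 FPKM, so none was lost to the filter on low values.

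The samples come from work on heterosis, in which a hybrid outgrows its inbred parents, here measured as biomass. Plants were 14 days old and had been kept on Murashige and Skoog plates with 1% sucrose, with no further treatment named. The inbred accession Ak-1 gave 2 libraries and the hybrid Col-0xAk-1, whose other parent is the reference accession Col-0, gave the other 2. The labels do not settle the name of the inbred line, which is Ak-1 in the titles, Aa-0 under genotype and Ak-0 in the design text, and Ak-1 is used here. They do not say whether leaves were pooled or whether replicates came from separate plants, so every p-value below rests on a spread between libraries that may be technical. Leaves of the Col-0 parent were not analysed here, and a hybrid level cannot be set against the mean of both parents. The genome build that the submitters name, TAIR10, is that of Col-0, which is a parent of the hybrid only. A group difference from how well reads match this build cannot be told apart from one in transcript level.

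Aquaporins are membrane channels that let water cross faster than it does through the lipid layer alone. PIP proteins sit in the plasma membrane as tetramers, and each subunit has its own pore. PIP2 proteins conduct water strongly by themselves, whereas many PIP1 proteins reach the plasma membrane only together with a PIP2 partner. In leaves these channels serve water flow out of the veins and between cells, and some also pass carbon dioxide or hydrogen peroxide. Their activity is set both by transcript level and by phosphorylation, membrane traffic and breakdown of the protein.

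In PIP proteins the pore is lined by a pair of short loops, each with an asparagine-proline-alanine box. The sequences below show how far the coding regions of this family are conserved where function is most constrained. They are 45 bases around the first box in 5 genes, from RefSeq's TAIR10.1 genome, on the coding strand, 5′ to 3′, with the 9 bases of the box in capitals.
PIP1;2: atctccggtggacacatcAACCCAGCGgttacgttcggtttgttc
PIP1;5: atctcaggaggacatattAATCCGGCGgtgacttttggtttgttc
PIP2;1: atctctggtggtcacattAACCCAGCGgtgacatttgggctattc
PIP2;6: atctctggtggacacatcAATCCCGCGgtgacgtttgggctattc
PIP2;7: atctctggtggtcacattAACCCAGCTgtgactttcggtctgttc
Each of the 10 genes held 2 such boxes in frame. Across the 10 first boxes 30 of the 45 positions were the same base in all genes, and the box itself was spelled in 6 ways.

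Over the whole coding region, identity between PIP1 genes ran from 79.8% to 87.6% of aligned bases in 10 pairs. Between a PIP1 and a PIP2 gene it ran from 70.5% to 76.0% in 25 pairs. Among the PIP2 genes it ran from 71.9% to 94.8%, and the highest value belonged to PIP2;2 and PIP2;3. These are neighbours on chromosome 2 with no annotated locus between them, and they are transcribed away from each other. Their coding regions have the same length of 858 bases and differ at 45. The last 120 coding bases of both genes are shown because reads from such stretches can be hard to assign, with the 10 bases that differ in capitals.
PIP2;2: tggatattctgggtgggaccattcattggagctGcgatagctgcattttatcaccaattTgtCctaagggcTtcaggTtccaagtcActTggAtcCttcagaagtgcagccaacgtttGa
PIP2;3: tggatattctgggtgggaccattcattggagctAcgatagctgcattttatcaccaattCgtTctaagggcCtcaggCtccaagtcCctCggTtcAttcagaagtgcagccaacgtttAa
Of all windows of 50 bases in their transcripts, 254 occurred unchanged in the other gene, which is 22.0% of the windows of the former and 21.7% of those of the latter. No window of the other 8 genes occurred in another PIP gene of the species. The division of reads within this neighbouring pair is therefore uncertain, and the other 8 values are less open to that problem.

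**Figure D1:**
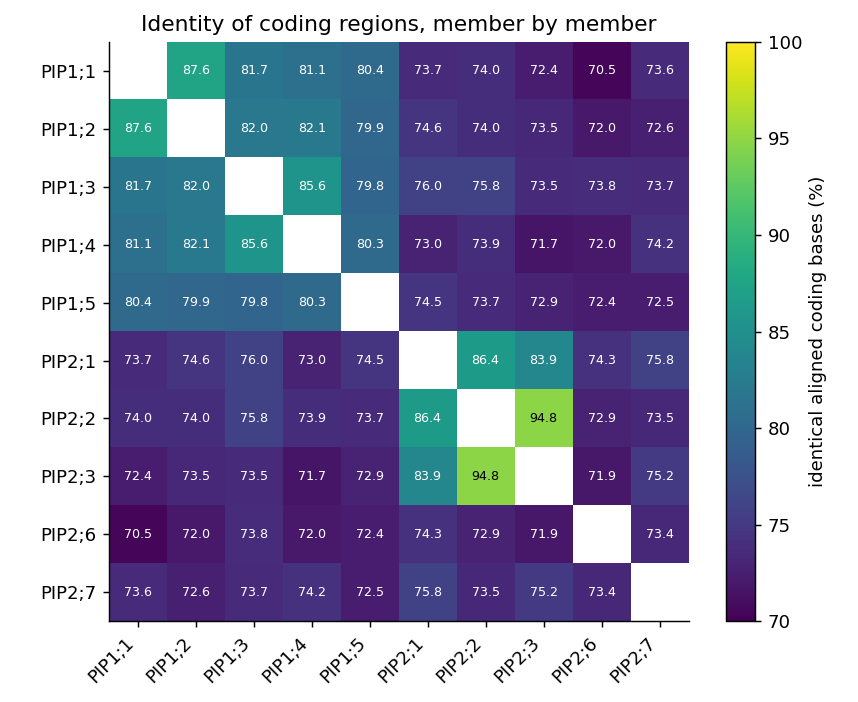
Percent of aligned coding bases that are identical for each pair of the 10 genes, from the TAIR10.1 annotation. PIP1 genes form a block from 79.8% to 87.6%, and the brightest pair, at 94.8%, is PIP2;2 with PIP2;3.

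The files give FPKM but no read counts, so how many reads each library holds is unknown. Relative depth was taken as the most common ratio of values between libraries, among loci from 0.05 to under 0.5 FPKM in both. It was 1.13 to 1.35 for the other 3 libraries against Ak-1 replicate 1, on the assumption that such loci hold equally few reads. The hybrid libraries were less alike than the Ak-1 libraries, with a Pearson's r across 15905 tested loci of 0.968 against 0.990 on the log2(FPKM + 1) scale. Between the hybrid libraries 74 loci differed by over 4-fold, against 0 between the Ak-1 libraries. Hybrid means are therefore given below together with the value of each hybrid library. Leaf cell markers were present throughout, while the 5 root markers together had 0 to 0.39 FPKM per library.

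The leading PIP transcripts were among the most abundant in the leaf. PIP2;3, the lowest of the 10 members, held rank 1842 of the 15905 tested loci in Ak-1 and rank 1414 in the hybrid. FPKM is scaled by transcript length, so levels of different genes can be set side by side, but only roughly, as the handling of reads that match several loci is not stated. The 10 genes together had 4048 and 3769 FPKM in Ak-1 against 4139 and 5723 FPKM in the hybrid, or 0.517% to 0.801% of all FPKM of a library. PIP2;1 (AT3G53420), a main water channel of leaves and roots, led in every library, with 1354 and 1274 FPKM in Ak-1 against 1447 and 2007 in the hybrid. It held rank 77 of the 15905 tested loci in Ak-1 and rank 62 in the hybrid. PIP1;2 (AT2G45960), which is known for water and carbon dioxide transport in leaves, came second with 791 and 761 FPKM in Ak-1 against 890 and 1184 in the hybrid. Both were at the top in every library without overlap with any lower gene of the same group. Together they made up 53.0% to 56.5% of the summed level of the 10 genes.

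The third gene was PIP1;1 (AT3G61430), at 486 and 455 FPKM in Ak-1 against 491 and 688 in the hybrid. PIP1;3 (AT1G01620) followed in Ak-1 with 367 and 363 FPKM, and it had 283 and 426 in the hybrid. The next level was shared in Ak-1 by PIP2;7 (AT4G35100), whose protein is carried to the cell surface by syntaxins, and PIP2;6 (AT2G39010). The former had 307 and 230 FPKM and the latter 273 and 258, so the spread of the first enclosed the second. In the hybrid the former had 292 and 556 FPKM and the latter 308 and 348. From the third to the sixth rank no neighbours in the hybrid order were separated beyond their spread.

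At the lower end, PIP1;4 (AT4G00430), which is known for transport of hydrogen peroxide, had 182 and 153 FPKM in Ak-1 against 150 and 163 in the hybrid. PIP1;5 (AT4G23400) had 127 and 114 FPKM in Ak-1 against 99.0 and 104 in the hybrid. The close pair on chromosome 2 ranked last in Ak-1. Its first gene, PIP2;2 (AT2G37170), had 103 and 111 FPKM in Ak-1 against 127 and 159 in the hybrid. Its second, PIP2;3 (AT2G37180), also named RD28 for its response to desiccation, had 57.8 and 49.7 FPKM in Ak-1 against 51.8 and 87.0 in the hybrid. In the hybrid the former ranked above the fifth PIP1 gene, with values that did not overlap, and its values overlapped those of the fourth.

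The remaining 3 PIP genes of the species were far lower. PIP2;4, a root aquaporin, had 2.96 and 2.72 FPKM in Ak-1 against 2.67 and 2.29 in the hybrid. PIP2;5 had 2.35 and 3.29 against 2.56 and 3.32 FPKM, so that its groups overlapped. PIP2;8 had 3.49 and 3.34 against 4.91 and 5.18 FPKM. The 10 genes described here thus carried 99.8% of all PIP FPKM in each library.

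**Figure D2:**
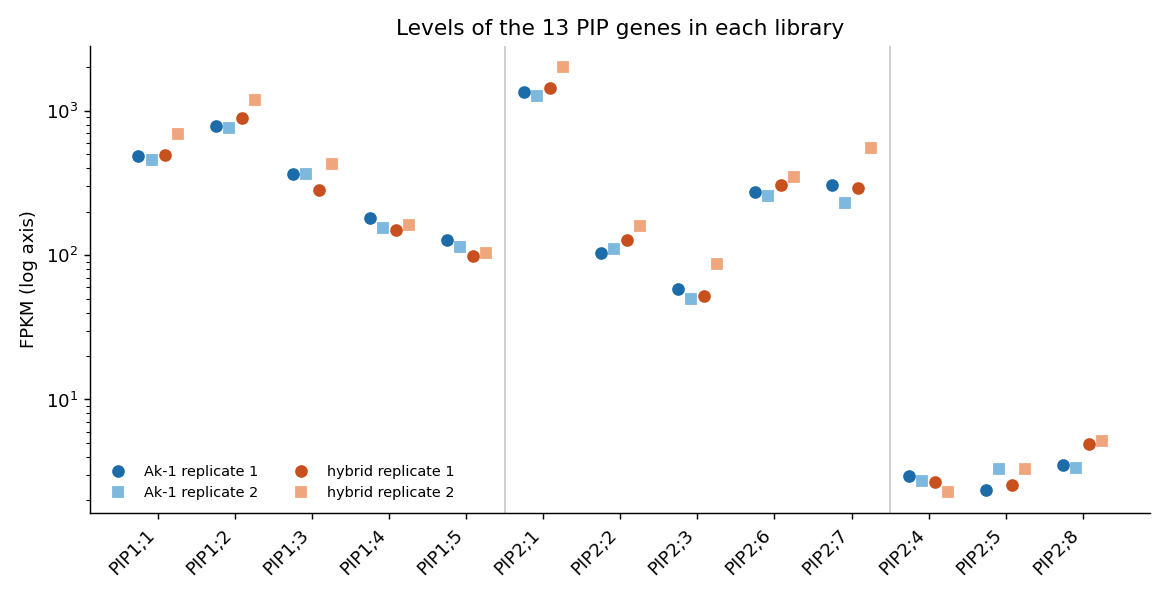
FPKM on a log axis of the 13 PIP genes in the 4 libraries, 1 point per library, with the PIP1 genes on the left, the 5 abundant PIP2 genes in the middle and the other 3 on the right. The members lie between 49.7 and 2007 FPKM and the other 3 between 2.29 and 5.18.

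No PIP gene was called different between hybrid and Ak-1 leaves. Of the 10 genes 0 were higher and 0 lower at a limma adjusted p under 0.05, and 0 had an unadjusted p under 0.05, which 3213 of the 15905 tested loci had. Among the 3 rare PIP genes only PIP2;8 had an unadjusted p under 0.05, and its limma adjusted p was 0.163. Over all tested loci 1.62% were called higher and 2.51% lower, so a count of 0 called among 10 is near the background of adjusted calls. The log2 difference was positive for 7 genes and negative for 3, with a median of 0.31 against −0.06 over all tested loci. In bulk leaf RNA, a change in the share of a cell type and a change in RNA per cell cannot be told apart.

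All 5 PIP2 members had a positive log2 difference, while the rare PIP2;4, PIP2;5 and PIP2;8 had a log2 difference of −0.14, 0.05 and 0.45. That of PIP2;1 was 0.38 (SE 0.21), as the mean moved from 1314 ± 56.8 FPKM to 1727 ± 396 (± SD, n = 2 in each group), with a limma adjusted p of 0.394. Its 95% interval ran from −0.16 to 0.91, which corresponds to ratios of 0.897 to 1.88. The lowest adjusted p of the 10 genes, 0.268 from limma, belonged to PIP2;2, with a log2 difference of 0.41 and an interval from −0.02 to 0.85. Its 2 hybrid values were both above its 2 Ak-1 values. The widest interval was that of PIP2;7, the gene with the largest log2 difference of the 10, from −0.28 to 1.47 around a log2 difference of 0.60, and its hybrid libraries lay 1.90-fold apart. The data therefore leave room for a 2.78-fold higher level of this gene as well as for a slightly lower one. PIP2;6 had a log2 difference of 0.30 with a narrower interval, from −0.08 to 0.69, and PIP2;3 had 0.32 with an interval from −0.37 to 1.01.

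The PIP1 genes went both ways. PIP1;1 and PIP1;2 had log2 differences of 0.30 and 0.40, with intervals of −0.23 to 0.83 and −0.09 to 0.90. The other 3 had negative values of −0.07, −0.09 and −0.24. The last of these was PIP1;5, from 121 ± 9.14 to 102 ± 3.52 FPKM, with an interval from −0.61 to 0.12 and a limma adjusted p of 0.415. It was the only member whose hybrid values were both below its Ak-1 values, and the upper bounds of these 3 intervals ran from 0.12 to 0.51. Hybrid values were all above the Ak-1 values in 5 of the 10 genes, against 20.5% of all tested loci, and all below in 1 of the 10, against 32.6%.

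**Figure D3:**
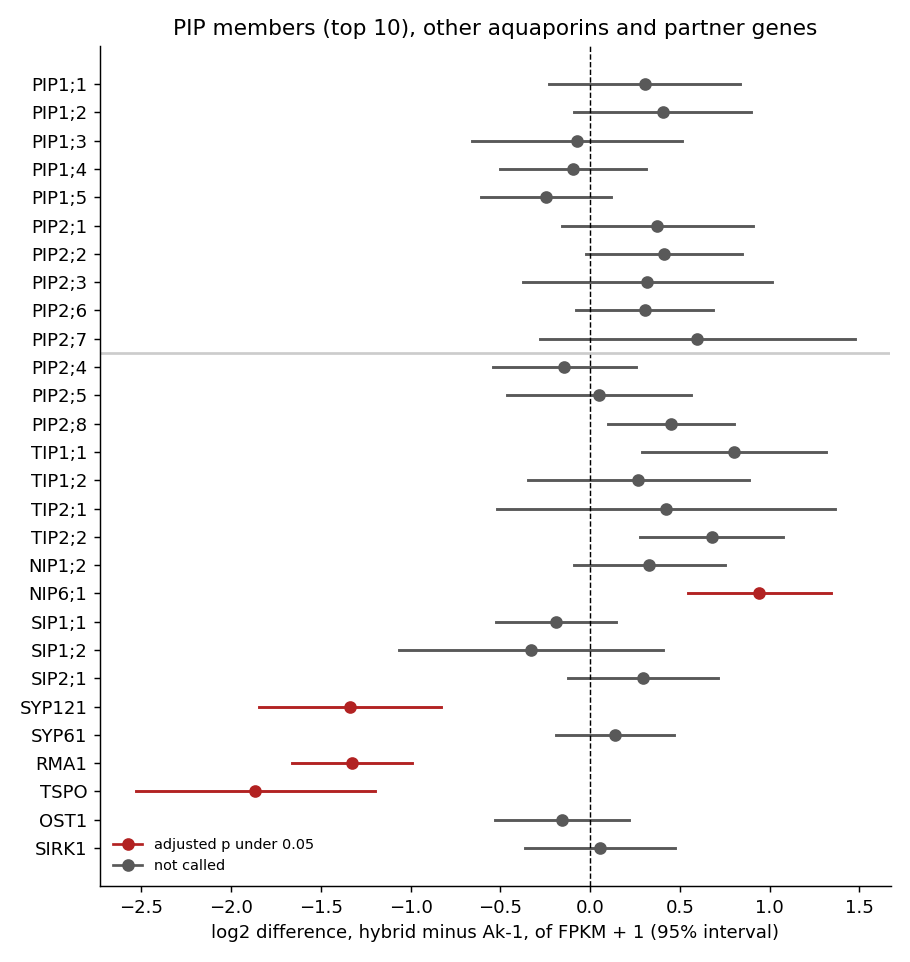
Points are log2 differences of FPKM + 1, hybrid minus Ak-1, and lines are their 95% intervals from limma, for the 10 members above the grey line and for other tested aquaporins and partner genes below it. All 10 member intervals include 0, while the called NIP6;1 lies above it and the called SYP121, RMA1 and TSPO lie below it. The intervals of 1 rare PIP gene and of a pair of TIP genes also lie above 0, but their adjusted p missed the threshold.

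The positive differences were larger in 1 hybrid library than in the other. All 10 genes were higher in hybrid replicate 2 than in hybrid replicate 1, which held for 55.9% of all tested loci. The median log2 difference between these libraries was 0.44 over the 10 genes and 0.05 over all tested loci. It was largest for PIP2;7 at 0.93 and smallest for PIP1;5 at 0.07. In Ak-1 the libraries were closer, and 9 of the 10 genes were lower in replicate 2, by a median of 0.09 on the log2 scale, against 58.0% of all tested loci. As each library supplies all 10 values, the genes are not separate observations of this difference.

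Set against the Ak-1 mean, the summed level was 1.06 times as high in hybrid replicate 1 and 1.46 times in hybrid replicate 2. The mean of both gave a ratio of 1.26, from 3909 ± 198 to 4931 ± 1120 FPKM, and the exact two-sided permutation test over the 4 libraries gave p = 0.333, the smallest this design allows. The median log2 difference of the 10 genes was 0.10 without hybrid replicate 2 and 0.56 without hybrid replicate 1. Neither fit called any of the 10. Without hybrid replicate 2 the sign of PIP2;3 turned to −0.049, and without hybrid replicate 1 that of PIP1;3 turned to 0.22.

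**Figure D4:**
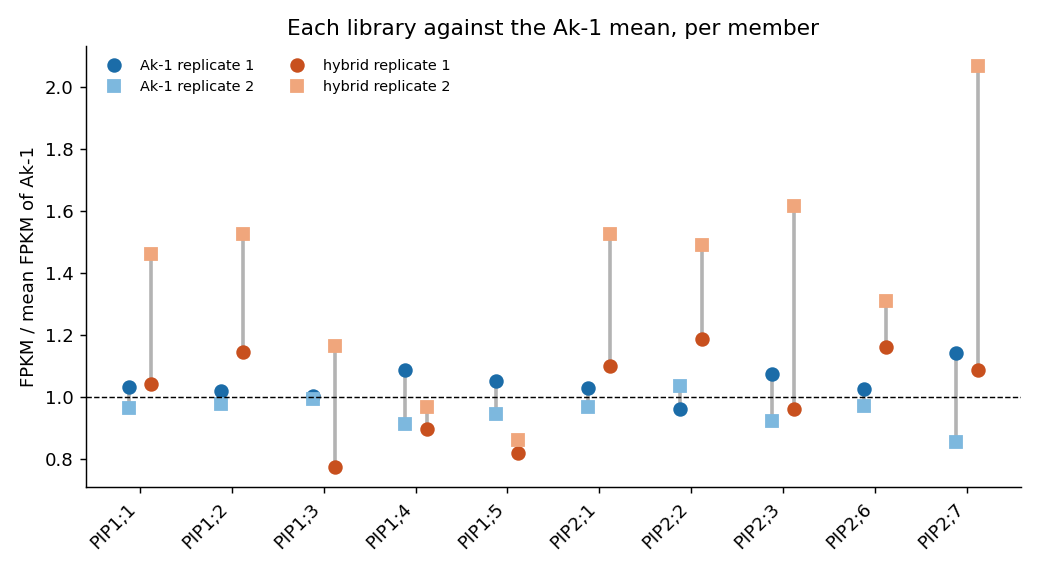
FPKM of each member in each library divided by its mean in Ak-1, with lines joining the 2 libraries of a group and a dashed line at 1. Hybrid replicate 2 is above hybrid replicate 1 for all 10 genes, and the widest gap, 1.09 against 2.07, is that of PIP2;7.

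Shares within the family do not depend on how libraries are scaled against each other. PIP1 genes made up 48.3% and 49.0% of the summed FPKM of the 10 genes in Ak-1 against 46.2% and 44.8% in the hybrid. The groups did not overlap, and the means differed by −3.10 percentage points (48.6% ± 0.512 against 45.5% ± 0.984, exact two-sided permutation p = 0.333, the smallest possible). As the groups did not overlap, either hybrid library alone had to give the same order, at −2.41 points without replicate 2 and −3.80 without replicate 1. The share of PIP1;3 was 9.06% and 9.63% in Ak-1 leaves and 6.84% and 7.44% in hybrid leaves. The fourth PIP1 gene held 4.50% and 4.06% against 3.63% and 2.84%, and the fifth 3.14% and 3.03% against 2.39% and 1.82%. The groups did not overlap for any of these 3 genes. The share of PIP1;2 went the other way, also without overlap, with 19.5% and 20.2% in Ak-1 leaves and 21.5% and 20.7% in hybrid leaves. The leading gene of the PIP2 subgroup took 33.4% and 33.8% in Ak-1 against 35.0% and 35.1% in the hybrid, without overlap. In every other PIP2 member the shares of the groups overlapped. The member with the largest log2 difference held 7.59% and 6.11% in Ak-1 against 7.06% and 9.72% in the hybrid. Its highest share was that of hybrid replicate 2, while hybrid replicate 1 lay between the Ak-1 values. PIP1;1 stayed between 11.9% and 12.1% in all 4 libraries. These shares were not tested gene by gene, and as parts of the same sum they are not independent of each other. With 2 libraries per group, any share without overlap would have an exact two-sided permutation p of 0.333.

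**Figure D5:**
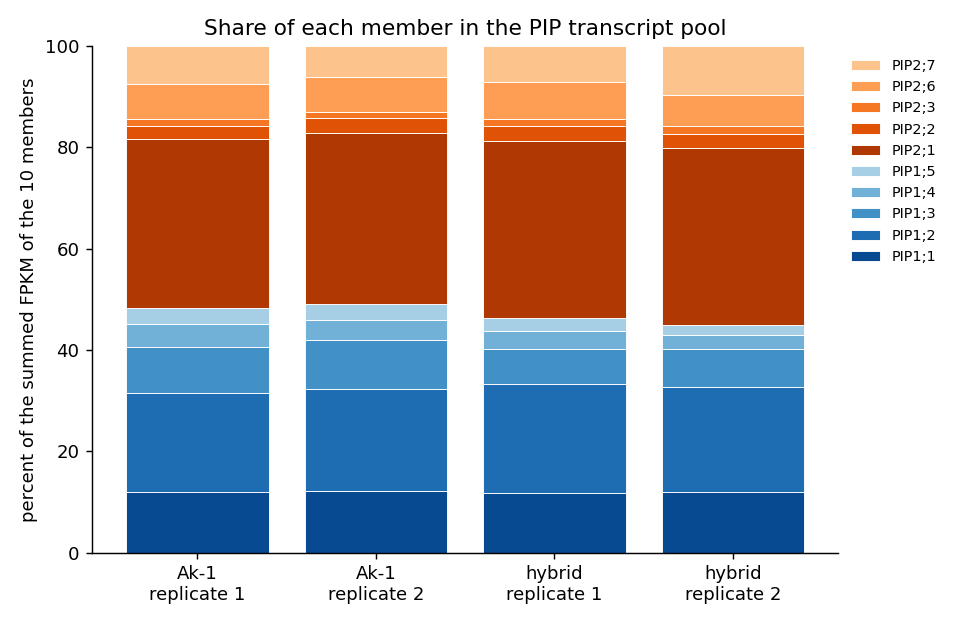
Stacked bars give the percent of the summed FPKM of the 10 members held by each gene in each library, with PIP1 genes in blue and PIP2 genes in orange. The blue part ends at 48.3% and 49.0% in Ak-1 and at 46.2% and 44.8% in the hybrid.

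The loci whose profile over the 4 libraries was closest to that of the summed PIP level, among 933 protein-coding loci outside the aquaporin family whose mean reached 100 FPKM, were ATCAD4, ACT2 and AT5G18380. Likeness was the Euclidean distance between centred log2(FPKM + 1) values over 4 libraries, which was 0.059, 0.061 and 0.069. ACT2, an actin gene often used as a reference in expression assays, had 238 and 227 FPKM in Ak-1 against 257 and 350 in the hybrid. The summed PIP level was 17.0 and 16.6 times the ACT2 level in Ak-1 and 16.1 and 16.3 times in the hybrid. As ACT2 was picked for its likeness, this near-constant ratio is a description only.

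Vacuolar aquaporins of the TIP group, which let water into and out of the vacuole, were also higher in hybrid replicate 2 than in hybrid replicate 1 in all 4 tested genes. Of 10 TIP genes 4 passed the minimum level and the other 6 had at most 0.47 FPKM in any library. All 4 tested TIP genes had positive log2 differences, with a median of 0.55. In the fit with all 4 libraries 0 of these genes were called higher or lower, where 1.62% of all tested loci were called higher and 2.51% lower. The median was 0.26 without hybrid replicate 2 and 0.88 without hybrid replicate 1. TIP2;2, with the smallest adjusted p of the list, had 96.8 and 105 FPKM in Ak-1 against 149 and 176 in the hybrid (log2 difference 0.68, limma adjusted p = 0.0949). Summed TIP levels were 1518 and 1452 FPKM in Ak-1 against 1524 and 2548 in the hybrid. PIP transcripts held 68.4% to 71.8% of all aquaporin FPKM per library.

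Among the 2 tested NIP and 3 tested SIP genes 1 was called, where 1.62% of all tested loci were called higher and 2.51% lower. NIP6;1, a boric acid channel of shoot tissues, rose from 15.9 and 18.2 to 36.4 and 31.0 FPKM (log2 difference 0.94, SE 0.16, limma adjusted p = 0.0422). Its 4 values did not overlap between groups, as for 20.5% of all tested loci, in which both hybrid values were the higher. Both hybrid libraries were raised alike. The call was lost with no filter on low values (limma adjusted p = 0.075), with a mean of at least 5 FPKM (0.0537) and with the replicate number as a block (0.0868). With each library left out in turn its log2 difference ran from 0.83 to 1.06. The other tested NIP gene was not called, and 7 NIP genes were below the minimum level. None of the 3 SIP genes, which encode small aquaporins of internal membranes, was called higher or lower, and SIP2;1 had the smallest adjusted p of 0.394 from limma.

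Genes that act on PIP proteins after transcription gave 3 falls among 6 tested, with 0 rises and 3 not called, where 2.51% of all tested loci were called lower and 1.62% higher. TSPO encodes a membrane protein that leads PIP2;7 to breakdown. It fell from 9.52 and 8.26 FPKM in Ak-1 to 1.13 and 2.45 in the hybrid (log2 difference −1.86, SE 0.26, limma adjusted p = 0.0285). SYP121, for a syntaxin that helps bring PIP proteins to the plasma membrane, fell from 18.4 and 24.8 to 7.05 and 8.72 FPKM (−1.34, SE 0.20, limma adjusted p = 0.0330). RMA1, for a ubiquitin ligase that promotes breakdown of PIP2;1, fell from 14.3 and 14.8 to 5.02 and 5.38 FPKM (−1.33, SE 0.13, limma adjusted p = 0.0118). No value overlapped between the groups for any of the 3, as for 32.6% of all tested loci, in which both hybrid values were the lower. The genes that fell thus include both a delivery factor and a pair of breakdown factors. The list median was −0.74, against −0.06 over all tested loci.

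The other 3 genes of that list were not called. SYP61, for a further syntaxin of PIP traffic, had 13.9 and 13.1 FPKM in Ak-1 against 14.9 and 15.1 in the hybrid. The kinase gene OST1, whose product phosphorylates a PIP2 protein in guard cells, had 24.9 and 21.2 against 20.7 and 20.4 FPKM. These 2 and SIRK1, for a receptor kinase that acts on PIP proteins after sucrose supply, were described after their values were seen. SIRK1 had 3.66 and 2.91 against 3.61 and 3.27 FPKM, with overlapping groups, while the groups of the other pair were close but apart. With each library left out in turn, the log2 difference ran from −2.21 to −1.52 for TSPO, from −1.54 to −1.13 for SYP121 and from −1.37 to −1.29 for RMA1. Such fits take their spread from the pair of libraries in the other group alone, so their calls are not given here. With no filter on low values only the fall of RMA1 was called (limma adjusted p = 0.0360), but over all loci that fit called 173 lower, against 400 in the main fit.

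Genes of the response to water deficit, a condition known to change PIP transcripts, were lower for 7 of 17 members and higher for 0, with 10 not called, beside the same 2.51% and 1.62% over all tested loci. RD26, for a drought-responsive transcription factor, went from 252 and 229 to 25.9 and 52.7 FPKM, a log2 difference of −2.67 (limma adjusted p = 0.0218). RD29B, a target of abscisic acid signalling, went from 26.1 and 22.1 to 3.48 and 2.99 FPKM (−2.57, limma adjusted p = 0.00458). NCED3, for the key enzyme of abscisic acid synthesis, went from 63.8 and 88.4 to 18.5 and 9.52 FPKM (−2.41, limma adjusted p = 0.0285). When loci with low values were kept in the fit, 2 of the 17 were called lower, but over all loci that fit called 173 lower, against 400 in the main fit. The list median of −0.55 was −0.55 without Ak-1 replicate 1 and −0.54 without Ak-1 replicate 2. It was −0.74 without hybrid replicate 1 and −0.37 without hybrid replicate 2. Over the same comparison RD28, the desiccation-named PIP gene, had overlapping groups.

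Leaf cell type markers were compared because PIP levels differ between tissues. The 3 mesophyll markers summed to 12391 and 14499 FPKM in Ak-1 against 21670 and 18150 in the hybrid, the opposite order of the hybrid libraries from that of the PIP genes. LHCB2.1, with the smallest adjusted p of them, had a log2 difference of 0.86 (limma adjusted p = 0.143). The 6 vasculature markers summed to 251 and 272 FPKM in Ak-1 against 302 and 298 in the hybrid, and HB8 had the smallest adjusted p at 0.247 from limma. Most of that sum was SUC2, with 144 and 168 FPKM in Ak-1 against 197 and 198 in the hybrid. Log2 differences were positive for 4 of the 6 and negative for 2, XCP1 and XCP2, at −0.26 each. The 5 guard cell markers summed to 33.7 and 33.2 against 35.3 and 39.7 FPKM (MYB60, limma adjusted p = 0.193), with 4 positive log2 differences and −0.31 for KAT1. The 4 epidermis markers, all with negative log2 differences, summed to 202 and 209 against 164 and 194 FPKM (PDF1, limma adjusted p = 0.145). SUC2, XCP1, XCP2 and KAT1 were named after their values were seen. None of these 18 markers was called, where 1.62% of all tested loci were called higher and 2.51% lower, so this count is near the background. Their part in the PIP values was not tested.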

How the data were processed

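FPKM values, in which mapped fragments are scaled by transcript length and by the mapped total of the library, were used as the authors deposited them, with 1 file of 34133 loci per library and no header. Libraries were made with the Illumina TruSeq RNA V2 kit, per the labels' protocols. The submitters' processing notes name the TAIR10 build and, with no role, the tools edgeR 3.12.0, Cufflinks 2.0.2, TopHat and TopHat2 2.0.8b. The handling of reads that match several loci is not stated there or in the labels.

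Loci were kept where their mean across libraries reached 1 FPKM, which left 15905. Their log2(FPKM + 1) values were compared, hybrid minus Ak-1 and without covariates, by the lmFit and eBayes functions of limma 3.58.1 (R 4.3.3), allowing the prior variance to follow the mean. A locus was called at a two-sided Benjamini-Hochberg adjusted p under 0.05 over all tested loci. The fit had 2 residual and 3.18 prior degrees of freedom. Fold changes on this scale understate those of genes with low values. Sums and shares over genes were compared with exact two-sided permutation tests over libraries, which cannot go below p = 0.333.

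The members and gene lists were chosen with earlier results of these data known, and no list was given a test. All members and the other 3 PIP genes are named. From each further list the named genes are up to 3 called genes with the largest difference or, where none was called, the gene with the smallest adjusted p, and any other is said to be chosen after its values were seen. Coding sequences were read by locus from RefSeq's TAIR10.1 genome with its own annotation, taking the transcript with the lowest RefSeq number per gene. As that build is not the authors' own, no coordinates are printed. The printed sequences and the comparison of windows are those of Col-0, and Ak-1 alleles were not examined. Alternatives were another pseudocount, other filters and scalings, no trend, the replicate number as a block, and each library left out. The same replicate numbers occur in both groups, but no label says that they mark a shared origin.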

Additional observations from a re-analysis of the deposited data

How the results depend on the processing

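None of the 10 PIP genes was called under any of 13 alternatives. The sign of the log2 difference was kept in 127 of 130 combinations of gene and alternative. With each library left out in turn, the log2 difference turned without Ak-1 replicate 1 for PIP1;4 (range −0.22 to 0.031), without hybrid replicate 1 for PIP1;3 (−0.37 to 0.22) and without hybrid replicate 2 for PIP2;3 (−0.049 to 0.69). Over the same omissions the median log2 difference of the 10 genes ran from 0.10 to 0.56, the ratio of summed FPKM from 1.06 to 1.46 and the PIP1 share difference from −3.80 to −2.41 points. Over all loci, leaving out a library gave 3 to 560 calls higher and 1 to 751 lower, against 257 and 400. A mean of at least 5 FPKM gave 92 higher and 206 lower, and no filter on low values gave 173 lower. The cause of these moves was not tested.

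With the replicate number as a block, 200 loci were higher and 365 lower, and no PIP gene was called, but NIP6;1 lost its call (limma adjusted p = 0.0868). The replicate deviations of both groups correlated at r = −0.14 over tested loci, so a crossed pairing was added after seeing the data, with 262 higher and 439 lower. Total depth is unknown, so no counting error is given, and 2 libraries per group limit the precision of every difference.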
